A study of Mus musculus with 7 samples.

Results

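The Arp2/3 complex was described here through the 10 mouse genes that encode its subunits, namely Actr2, Actr3, Actr3b, Arpc1a, Arpc1b, Arpc2, Arpc3, Arpc4, Arpc5 and Arpc5l. They were taken by gene symbol from a table of 23420 genes, and all 10 were present in it. RNA was sequenced from microglia, the macrophages that reside in brain tissue. They were sorted from the cortex at postnatal day 30 by a gate of CD11b+, CD45low and CX3CR1+. The 4 cKO libraries came from Srgap2f/f mice that carried Tmem119creErt2, a tamoxifen-inducible recombinase driven from a microglial gene. The 3 WT libraries came from Srgap2f/f mice without the recombinase, so the controls were floxed animals and not unmodified ones. Mice of both groups were gavaged with tamoxifen at 75 ug per g, in 2 doses at postnatal days 8 and 10. Only cKO mice had the recombinase, so its effects and those of the Srgap2 deletion cannot be told apart. Each library came from a separately numbered mouse, and neither sex nor litter is given in the labels.

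Arp2/3 nucleates new actin filaments as branches on the sides of existing ones, and so builds the sheet-like networks that push out membranes. It is inactive alone and is switched on by nucleation-promoting factors of the WASP and WAVE families, which in turn respond to the small GTPases Cdc42 and Rac1. In microglia it serves process extension, chemotaxis and uptake of particles. The actin-related proteins Arp2 (Actr2) and Arp3 (Actr3, or the alternative Actr3b) form the template for the new filament. ARPC2 and ARPC4 form the core that clamps the mother filament, ARPC3 contacts Arp3, ARPC1 contacts the activators, and ARPC5 tethers the Arp2 side to the core. The ARPC1 position is filled by Arpc1a or Arpc1b and the ARPC5 position by Arpc5 or Arpc5l, so assembled complexes differ in composition.

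Upstream sequence was available for 8 of the 10 genes in RefSeq promoter windows (build GRCm38.p6). It is shown for 3 core or tethering subunits that contrast in the results, Arpc2 and Arpc5, which passed the test, and Arpc4, which did not. This choice was made with their values known. Each line gives the 250 bases before the RefSeq transcription start, 5′ to 3′ on the gene's own strand, which is the plus strand for each of the 3, at chr1:74236267-74236516 for Arpc2, chr1:152766292-152766541 for Arpc5 and chr6:113377863-113378112 for Arpc4. Capitals mark GGAAGT, the core letters bound by ETS-family factors, and the CArG box, the element bound by serum response factor, each searched on both strands. The motifs did not overlap each other in these windows. GENCODE M21 places the first base of Arpc2 further upstream, at position 74236084 of chromosome 1, so the Arpc2 window lies inside the gene as annotated there.
Arpc2: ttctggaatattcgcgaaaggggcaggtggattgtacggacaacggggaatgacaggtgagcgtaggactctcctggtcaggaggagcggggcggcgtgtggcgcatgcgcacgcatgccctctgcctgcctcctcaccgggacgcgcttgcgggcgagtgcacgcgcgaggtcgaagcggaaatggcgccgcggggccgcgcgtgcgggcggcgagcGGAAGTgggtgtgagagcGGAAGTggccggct
Arpc5: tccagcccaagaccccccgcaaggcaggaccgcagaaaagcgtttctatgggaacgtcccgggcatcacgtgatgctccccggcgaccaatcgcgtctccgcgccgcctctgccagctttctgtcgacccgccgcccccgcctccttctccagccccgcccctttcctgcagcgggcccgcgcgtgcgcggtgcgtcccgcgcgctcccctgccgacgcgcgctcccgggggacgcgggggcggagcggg
Arpc4: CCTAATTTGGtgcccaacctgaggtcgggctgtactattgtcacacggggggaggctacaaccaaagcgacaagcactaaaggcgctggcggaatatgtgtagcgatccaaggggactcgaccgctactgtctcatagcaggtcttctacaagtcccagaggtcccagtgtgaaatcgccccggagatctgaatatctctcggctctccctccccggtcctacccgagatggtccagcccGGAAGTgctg
The Arpc2 window held GGAAGT at 2 places, the Arpc4 window held it once together with a CArG box, and neither motif was in the Arpc5 window. Among the 8 genes, 5 windows held GGAAGT and 1 held a CArG box. Of all 32851 windows in the table, 19.7% held GGAAGT and 1.5% held a CArG box. A match is a description of the letters only.

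The deposited counts were compared on the scale of CPM (counts per unit of library size) after TMM scaling, and total counts ranged from 27016173 to 35707304. A gene was called changed at a Benjamini-Hochberg adjusted p under 0.05 over the 11991 genes tested with the quasi-likelihood test of edgeR. Pairs of libraries within a group differed beyond counting noise, with a ratio of chi-square to its degrees of freedom of 18.8 to 98.3. Srgap2, the deleted gene, was at 979, 691 and 693 CPM in WT replicates 1 to 3 and at 344, 257, 275 and 212 CPM in cKO replicates 1 to 4. The 10 microglial markers were abundant in every library, with a summed level from 50925 to 58075 CPM in cKO and from 58281 to 61209 CPM in WT. Every cKO library was thus below every WT library in this sum. The list includes Tmem119, the driver locus, at 6557 ± 571 CPM in WT (SD, n = 3) and 3707 ± 716 CPM in cKO (SD, n = 4). Tmem119 was called lower in cKO (edgeR log2 fold change −0.82, SE 0.15, adjusted p = 0.046), as were 0.0417% of all genes. Xist was at 69.4 CPM or more in cKO replicates 2 and 4 and WT replicates 2 and 3, and at 0.66 CPM or less in the other 3 libraries. Ddx3y, a Y-linked gene, was at 27.2 to 30.4 CPM in those 3 libraries and at 0.18 CPM or less in the libraries with Xist. Both genes follow the sex of the mouse, which the labels do not give.

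Of the 10 subunit genes, 9 passed the filter on low counts and were tested, and Actr3b did not pass it. Arpc2 and Arpc5 rose in cKO microglia, 0 fell, and the other 7 did not pass the test. Of all genes tested, 0.317% were called higher and 0.0417% lower in cKO. DESeq2 called 5 of the subunit genes higher, adding Arpc1b, Arpc3 and Actr3, beside 3.53% of all genes. An unadjusted p under 0.05 was found for 7 of the 9 genes and for 16.5% of all genes. The 9 log2 fold changes were all above 0, with a median of 0.39, against a median of −0.01 over all genes tested, of which 48.1% lay above 0. For 7 of the 9 genes every cKO library was above every WT library, which was so for 8.86% of all genes tested. The estimates ranged from 0.63 for Arpc2 to 0.06 for Arpc5l on the log2 scale. In bulk RNA, more transcripts per cell and more cells that express a gene cannot be told apart.

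**Figure D1:**
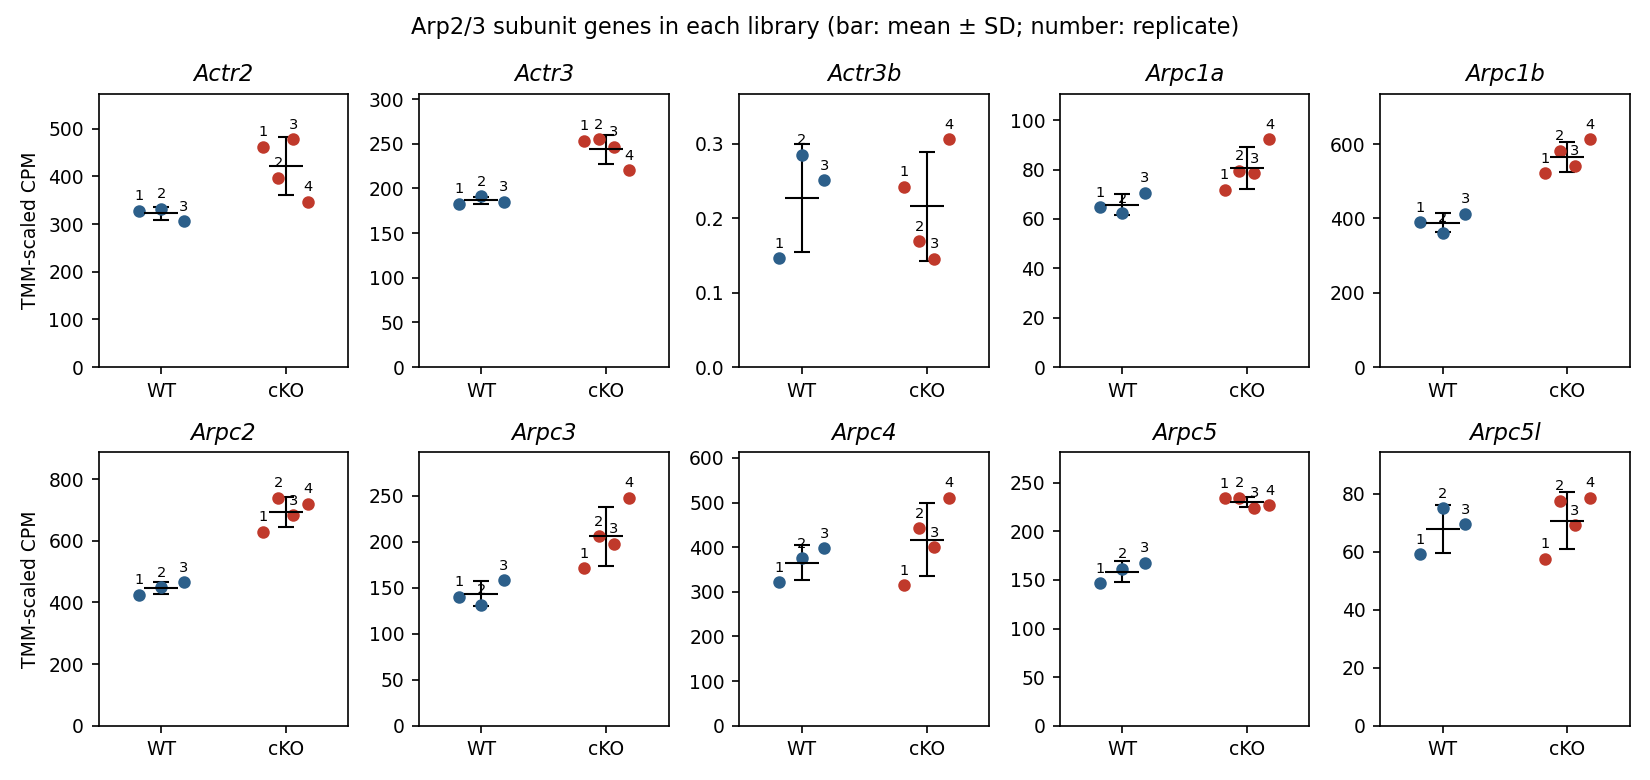
TMM-scaled CPM (vertical axis, from 0) of the 10 subunit genes in WT (3 libraries) and cKO (4 libraries), 1 point per library with its replicate number and a bar for the mean ± SD. The groups are separate for 7 genes, Arpc2 and Arpc5 among them, with cKO higher (8.86% of all genes tested). They overlap for Arpc4, Arpc5l and the scarce Actr3b.

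The core of the complex held the subunit with the largest fold change, Arpc2, and one of those with the smallest, Arpc4. Arpc2, whose protein forms most of the contact with the mother filament, was at 424, 449 and 466 CPM in WT replicates 1 to 3 and at 629, 739.7, 683 and 719.7 CPM in cKO replicates 1 to 4. The lowest cKO library was well above the highest WT library. Means were 446 ± 20.7 CPM for WT (SD, n = 3) and 693 ± 48.7 CPM for cKO (SD, n = 4), a 1.55-fold difference (edgeR log2 fold change 0.63, SE 0.10, adjusted p = 0.032). Arpc2 ranked at position 23 by p among all genes tested. When 1 library at a time was left out, the log2 fold change stayed between 0.60 and 0.67. The adjusted p then passed 0.05 in 5 of 7 cases, reaching 0.24; the call held without cKO replicate 1 and without cKO replicate 4.

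Arpc4, the partner of Arpc2 in the core, was at 321.5, 376 and 398 CPM in WT and at 315, 442, 399.6 and 511 CPM in cKO replicates 1 to 4. The groups overlapped, with cKO replicate 1 below every WT library and cKO replicate 4 above every other library. Means were 365 ± 39.4 CPM for WT (SD, n = 3) and 417 ± 82.0 CPM for cKO (SD, n = 4) (edgeR log2 fold change 0.19, SE 0.15, adjusted p = 0.58). Without cKO replicate 1 the log2 fold change of Arpc4 was 0.29, and without cKO replicate 4 it was 0.08. Exons of Arpc4 share 283 bases with Ttll3 on the same strand, a gene at 5.79 to 17.8 CPM.

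The subunits at the Arp2 side of the complex came next. Arpc5, the tether of Arp2 to the core, was at 146, 162 and 168 CPM in WT and at 234, 235, 224 and 227 CPM in cKO replicates 1 to 4. Its cKO libraries were the most alike of any subunit tested, with a coefficient of variation of 2.27%. Means were 159 ± 10.99 CPM for WT (SD, n = 3) and 230.1 ± 5.21 CPM for cKO (SD, n = 4) (edgeR log2 fold change 0.54, SE 0.10, adjusted p = 0.048). The Arpc5 call was close to the threshold. It was lost with upper-quartile scaling (adjusted p = 0.055) and without any one library other than cKO replicate 1, with an adjusted p of up to 0.26.

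Arpc5l, the alternative to Arpc5, was at 59.0, 75.1 and 69.5 CPM in WT and at 57.6, 77.6, 69.2 and 78.7 CPM in cKO. The groups overlapped throughout, and cKO replicate 1 and WT replicate 1 were the lowest of each group. Means were 67.9 ± 8.15 CPM for WT (SD, n = 3) and 70.8 ± 9.73 CPM for cKO (SD, n = 4) (edgeR log2 fold change 0.06, SE 0.14, adjusted p = 0.87). Its direction was not stable: the log2 fold change of Arpc5l was −0.03 without WT replicate 1 and −0.02 with sample quality weights. Exons of Arpc5l overlap those of Rpl35 (opposite strand) and Wdr38 (same strand) in full GENCODE M21, with 0 shared bases in its basic set. Rpl35 was at 71.6 ± 8.59 CPM in WT (SD, n = 3) and 94.3 ± 15.0 CPM in cKO (SD, n = 4), and Wdr38 at 0.22 CPM or less.

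Arpc1b, the ARPC1 form that prevails in blood-derived and other immune cells, was at 390.4, 362 and 413 CPM in WT and at 523, 582, 542 and 614 CPM in cKO replicates 1 to 4. Every cKO library was above every WT library, and the difference missed the threshold (565 ± 40.7 CPM (SD, n = 4) against 388 ± 25.6 CPM (SD, n = 3), edgeR log2 fold change 0.54, SE 0.11, adjusted p = 0.060). Arpc1b passed in 11 of the 21 alternative fits, with a log2 fold change from 0.48 to 0.59. Its exons share 931 bases with Pdap1, which lies on the opposite strand. Pdap1 was at 39.5 ± 2.995 CPM (SD, n = 3) in WT and 58.7 ± 4.75 CPM (SD, n = 4) in cKO (edgeR log2 fold change 0.57, adjusted p = 0.060). The strand setting of the counting is not given in the sources used here, so reads of the shared stretch cannot be told apart.

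Arpc1a, the other ARPC1 form, was at 64.7, 62.2 and 70.6 CPM in WT and at 71.9, 79.5, 78.6 and 92.3 CPM in cKO replicates 1 to 4. Its groups were separate by a narrow margin, from the highest WT library to cKO replicate 1. Means were 65.9 ± 4.27 CPM for WT (SD, n = 3) and 80.6 ± 8.55 CPM for cKO (SD, n = 4) (edgeR log2 fold change 0.29, SE 0.12, adjusted p = 0.235). Arpc1a and Arpc1b are neighbours on chromosome 5 in GENCODE M21 (build GRCm38), on the same strand and 5453 bases apart.

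Arpc3, which contacts Arp3, was at 140.1, 131.5 and 158 CPM in WT and at 171, 206, 198 and 248 CPM in cKO replicates 1 to 4. All cKO libraries were above all WT libraries, and cKO replicate 4 was the highest. Means were 143 ± 13.5 CPM for WT (SD, n = 3) and 206 ± 31.8 CPM for cKO (SD, n = 4) (edgeR log2 fold change 0.52, SE 0.13, adjusted p = 0.12). In an edgeR fit with offsets for GC content and length, the log2 fold change of Arpc3 was 0.37 and narrowly missed the threshold (adjusted p = 0.0504). Arpc3 passed in 5 of the 21 alternative fits, with a log2 fold change from 0.33 to 0.60 over all of them.

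The actin-related proteins that seed the new filament had nearly equal fold changes. Actr2 was at 328.5, 332 and 307 CPM in WT and at 462, 397, 478 and 347 CPM in cKO replicates 1 to 4. The cKO libraries were spread widely, with replicate 4 close to the WT libraries (421 ± 60.6 CPM (SD, n = 4) against 322 ± 13.7 CPM (SD, n = 3), edgeR log2 fold change 0.39, SE 0.12, adjusted p = 0.165). Actr3 was at 183, 191 and 185 CPM in WT and at 253.5, 255, 247 and 220.5 CPM in cKO. Here too cKO replicate 4 was the lowest of its group, and the groups did not overlap (244 ± 16.1 CPM (SD, n = 4) against 186.5 ± 4.35 CPM (SD, n = 3), edgeR log2 fold change 0.39, SE 0.10, adjusted p = 0.12). Actr3b, the alternative to Actr3, had 4, 9 and 9 counts in WT and 7, 5, 4 and 10 counts in cKO, too few to pass the filter. In the alternative fit without a filter it did not pass the test (edgeR log2 fold change −0.08, SE 0.63, adjusted p = 0.97).

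**Figure D2:**
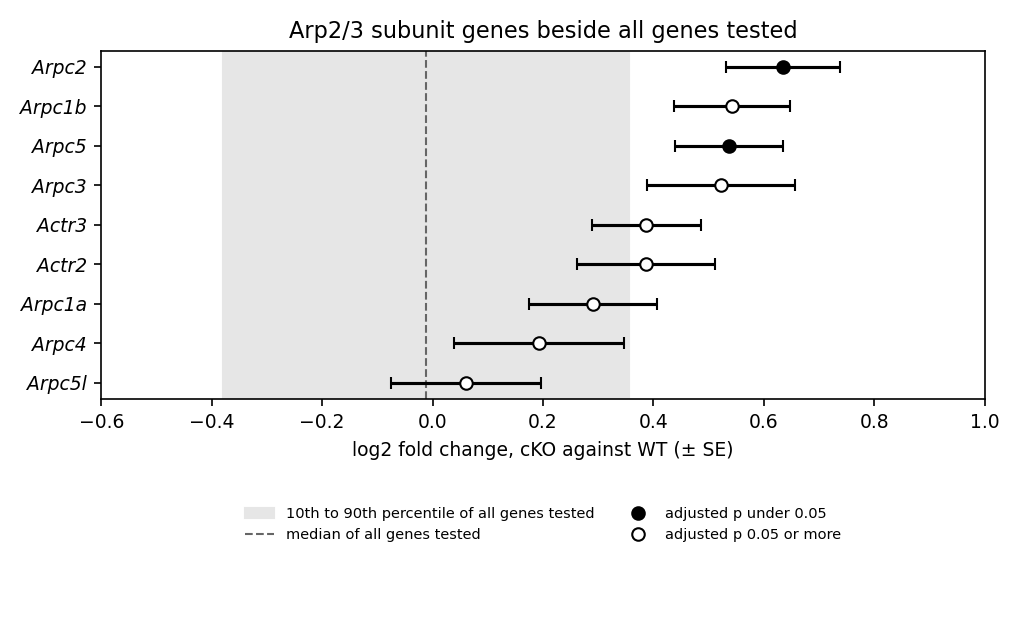
log2 fold change of cKO against WT (horizontal axis) with its SE for the 9 subunit genes tested, filled where the adjusted p was under 0.05. The shaded band spans the 10th to the 90th percentile of all genes tested, −0.38 to 0.36, and the dashed line is their median. Arpc2 and Arpc5 are filled, and Arpc1a, Arpc4 and Arpc5l lie within the band.

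Transcripts of alternative subunits were compared as a ratio within each library, which needs no scaling between libraries. Protein and assembled complexes were not measured, so the ratios do not give the composition of the complex. The ratio of Arpc1b to Arpc1a counts was 6.03, 5.81 and 5.85 in WT replicates 1 to 3 and 7.27, 7.33, 6.90 and 6.64 in cKO replicates 1 to 4, higher in 4 of 4 cKO libraries than in any WT library. The difference in mean log2 ratio was 0.25, from 2.56 ± 0.03 (SD, n = 3) in WT to 2.81 ± 0.07 (SD, n = 4) in cKO. The two-sided exact permutation p over the 35 divisions of the libraries was 0.029, the smallest they can give, and 0.043 when adjusted over the 3 ratios. That smallest p is reached only where the groups do not overlap, so it adds little to that separation. Among single genes tested, every cKO library was above every WT library for 8.86% and below for 7.2%. The share among other ratios was not computed.

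The ratio of Arpc5l to Arpc5 counts moved in favour of Arpc5. It was 0.403, 0.464 and 0.414 in WT and 0.246, 0.330, 0.309 and 0.346 in cKO replicates 1 to 4, lower in 4 of 4 cKO libraries than in any WT library. The difference in mean log2 ratio was −0.48, from −1.23 ± 0.11 (SD, n = 3) to −1.71 ± 0.22 (SD, n = 4), with a two-sided exact permutation p of 0.029 and 0.043 when adjusted. Without cKO replicate 1, the lowest library, the difference was −0.38. The ratio of Actr3b to Actr3 rested on 10 or fewer counts of Actr3b per library and its groups overlapped (difference in mean log2 ratio −0.45, two-sided exact permutation p = 0.20).

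Within the runs of mouse numbers in the labels, 1058 to 1062 (1 WT and 2 cKO libraries) and 1101 to 1109 (2 and 2), the difference for Arpc1b to Arpc1a was 0.28 and 0.22, and that for Arpc5l to Arpc5 was −0.50 and −0.42, values without a test. The GC content of the longest coding transcript was 51.8% for Arpc1a and 52.5% for Arpc1b, and 46.2% for Arpc5 and 49.7% for Arpc5l. The part of GC content in the ratios was not tested, nor was that of reads from the genes that overlap Arpc1b and Arpc5l. With any 1 library left out, fewer divisions remain and the adjusted p of these 2 ratios was 0.10 to 0.20. A difference in ratio says that the paralogs changed unequally, not which of them changed.

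**Figure D3:**
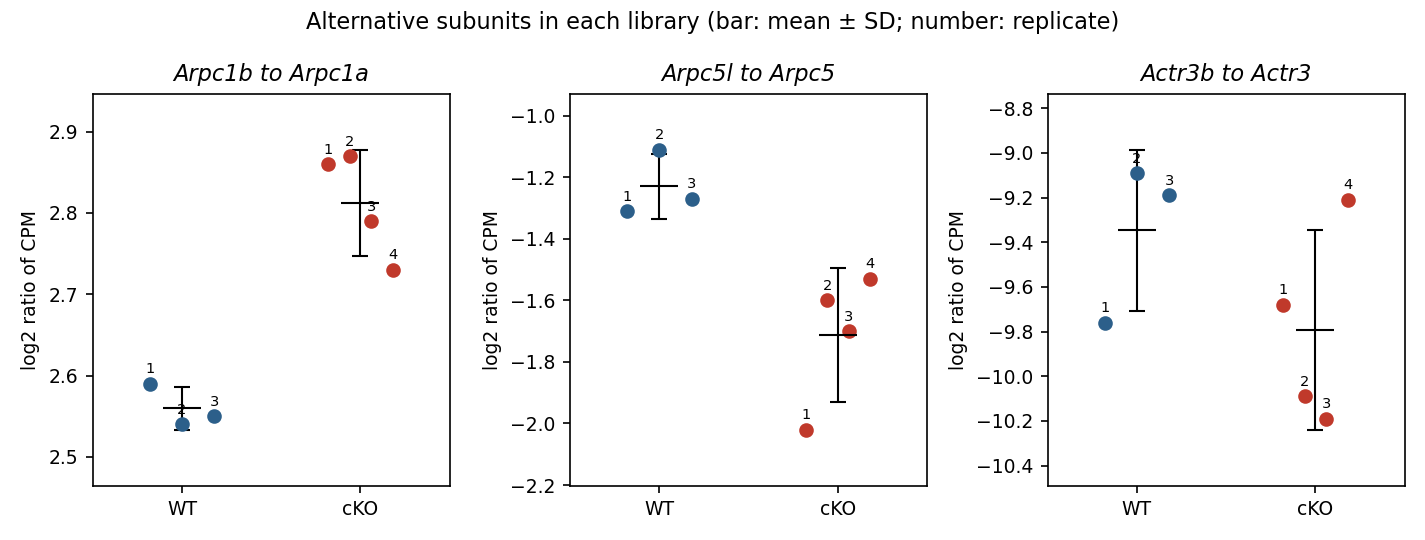
log2 ratio of the CPM of alternative subunits (vertical axis) in WT (3 libraries) and cKO (4 libraries), 1 point per library with its replicate number and a bar for the mean ± SD. The cKO libraries lie above all WT libraries for Arpc1b to Arpc1a and below them for Arpc5l to Arpc5, and overlap them for Actr3b to Actr3.

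Levels of different subunits were compared only per length, as CPM per kb of the mean length of the coding transcripts in the GENCODE M21 basic set. In WT microglia Arpc2 was highest, at 322 ± 15.0 CPM per kb (SD, n = 3), followed by Arpc4 at 287 ± 31.0, and the ranges of these first 2 overlapped. Arpc3 (180.1 ± 17.0 CPM per kb) and Arpc1b (173 ± 11.4) followed, again with overlapping ranges, and they changed places when the union of exons was taken as the length. Actr2 (88.8 ± 3.78 CPM per kb) and Arpc5 (86.9 ± 6.02) came next and overlapped each other. Actr3 was at 72.9 ± 1.70, Arpc5l at 50.7 ± 6.08, Arpc1a at 40.4 ± 2.62 and Actr3b at 0.122 ± 0.039 CPM per kb (SD, n = 3), and the WT ranges of these last 4 were separate from each other. In cKO the order of the means was the same except that Arpc5 (126 ± 2.86 CPM per kb, SD, n = 4) was above Actr2 (116 ± 16.7).

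Per length, Arpc1b made up most of the ARPC1 transcripts and Arpc5l the smaller part of the ARPC5 transcripts in microglia of both groups. The Arpc1b share was 81.0% ± 0.30 (SD, n = 3) in WT and 83.6% ± 0.64 (SD, n = 4) in cKO. The Arpc5l share was 36.8% ± 1.75 (SD, n = 3) in WT and 29.5% ± 3.07 (SD, n = 4) in cKO. Of the summed CPM per kb over all 10 genes, Arpc2 held 24.4% to 25.0% in WT and 26.9% to 29.0% in cKO, and Arpc4 held 20.5% to 22.8% in WT and 15.6% to 20.9% in cKO. The Arpc2 shares were thus apart and the Arpc4 shares overlapped at cKO replicate 4, a description without a test. Shares depend on the annotated length, since the annotation used for the counting is not given in the sources used here.

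The subunits did not follow one profile over the libraries. The mean deviation of the 9 genes from their own mean log2 CPM was −0.29, −0.22 and −0.16 in WT replicates 1 to 3 and 0.05, 0.21, 0.16 and 0.25 in cKO replicates 1 to 4. Among the cKO libraries, Arpc4 deviated by −0.31 in replicate 1 and 0.39 in replicate 4, and Arpc3 by −0.03 and 0.50. Actr2 ran the other way, with 0.31 in replicate 1 and −0.11 in replicate 4. The coding transcript of Arpc4 had the highest GC content of the 10 genes, 53.1%, and that of Actr2 the lowest, 40.3%.

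Libraries differed in how the level of a gene related to its GC content. The deviation of each gene was set against its GC content across 11906 genes, which are not independent of each other. The rank correlation was −0.52 in cKO replicate 1, −0.42 in cKO replicate 3, 0.17 in cKO replicate 2 and 0.44 in cKO replicate 4, and from −0.02 to 0.24 in WT. When these relations were taken up as offsets (for GC content and length, in each library), 5 subunit genes passed, all higher in cKO, against 4.34% of all genes called higher. These were Arpc1b (edgeR log2 fold change 0.59, adjusted p = 0.0044), Arpc2 (0.56), Arpc5 (0.50), Actr2 (0.40, adjusted p = 0.015) and Actr3 (0.37, adjusted p = 0.021). The log2 fold change of Arpc4 was 0.22 and that of Arpc5l 0.01 with these offsets, and neither passed.

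**Figure D4:**
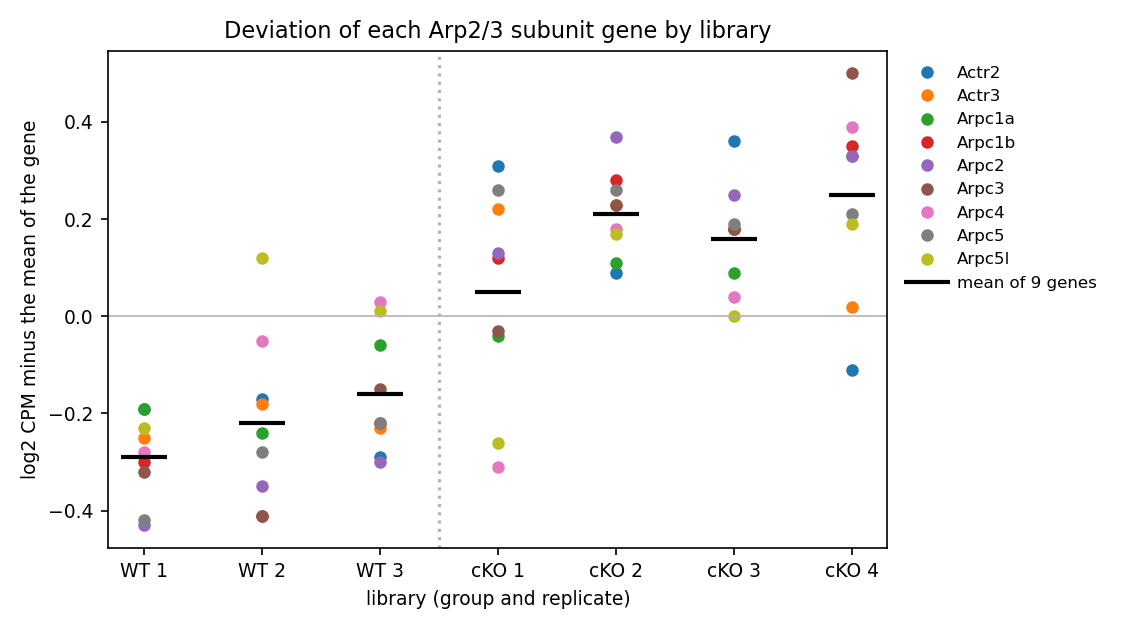
Deviation of log2 CPM from the mean of each gene over the 7 libraries (vertical axis, log2) for the 9 subunit genes tested (points) and their mean (bar), by library. The bars lie below 0 in the 3 WT libraries and above 0 in the 4 cKO libraries, while Arpc4 and Actr2 run opposite ways between cKO replicates 1 and 4.

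The fold changes were also read within subsets of libraries, without a test. All 9 genes tested were higher in cKO within each of 4 subsets. The median difference in log2 CPM was 0.42 within mouse numbers 1058 to 1062 (all genes −0.03) and 0.36 within mouse numbers 1101 to 1109 (all genes −0.0). It was 0.37 within the libraries with Xist, 2 WT and 2 cKO (all genes −0.01). Within the libraries without Xist, 1 WT and 2 cKO, it was 0.45 (all genes −0.02). The difference for Arpc2 ranged from 0.62 to 0.68 over these 4 subsets, and that for Arpc5 from 0.45 to 0.68. Actr2 was the subunit with the widest gap between libraries with Xist (0.22) and without it (0.52). The second value rests on 1 WT library, and this gap was not tested. Within cKO, the libraries without Xist were those with a negative rank correlation with GC content, −0.52 and −0.42. The cKO libraries with Xist were at 0.17 and 0.44. Xist and the relation to GC content thus cannot be told apart within cKO. With log2 CPM of Xist as a covariate 5 subunit genes passed, Arpc1b, Arpc2, Arpc3, Arpc5 and Actr3, against 6.21% of all genes called higher.

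**Figure D5:**
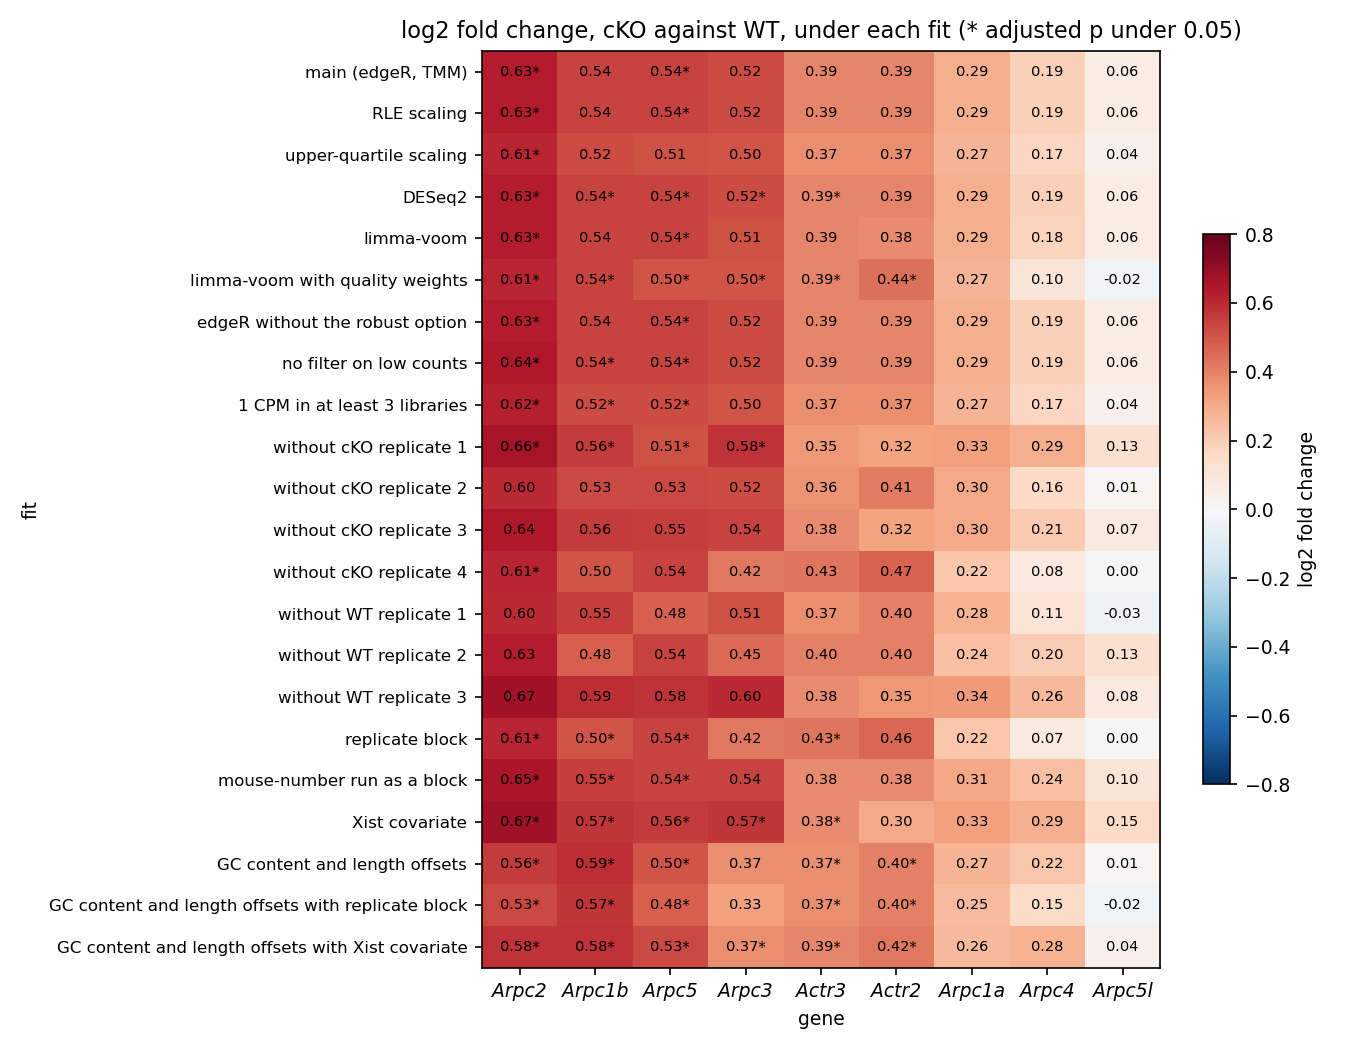
log2 fold change of cKO against WT (colour and number) of the 9 subunit genes (columns) under the main fit and each alternative (lines), with a star where the adjusted p was under 0.05. Arpc1a, Arpc4 and Arpc5l have no star under any fit, and negative values appear for Arpc5l alone.

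Genes that switch the complex on were examined as a list of 30, of which 26 were tested. Of these, 0 passed the edgeR test in either direction, and 8 had an unadjusted p under 0.05 (16.5% of all genes). DESeq2 called 3 higher (3.53% of all genes) and voom of limma, without quality weights, called 1 higher (0.342%). With the offsets for GC content and length 7 passed, all higher in cKO (4.34% of all genes). Of the 26 genes, 21 had a fold change above 0, as did 48.1% of all genes, and the median log2 fold change of the 26 was 0.14. Every cKO library was above every WT library for 11 of them (8.86% of all genes) and below for 1 (7.2% of all genes). The smallest p belonged to Cdc42, the GTPase that opens WASP, at 617, 621 and 669 CPM in WT and 928, 962, 948 and 841 CPM in cKO (edgeR log2 fold change 0.53, SE 0.10, adjusted p = 0.058). Next were Rac1, the GTPase that activates the WAVE complex (0.41, SE 0.10, adjusted p = 0.10), and Brk1, the smallest WAVE complex subunit (0.53, SE 0.14, adjusted p = 0.13). The groups were separate for each of these 3 genes.

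Inhibitors and factors that take branches apart were a list of 11, of which 10 were tested and 0 passed the edgeR test in either direction; 2 had an unadjusted p under 0.05 (16.5% of all genes), and 0 passed with DESeq2 or with voom, with or without quality weights. Gmfg passed with the Xist covariate (6.21% of all genes called higher), and Gmfg, Gmfb and Coro1b passed with the offsets plus Xist (8.31%). The median log2 fold change was 0.22. The smallest p belonged to Gmfg, which severs branches at the complex (0.52, SE 0.16, adjusted p = 0.16), Pick1, described as an inhibitor of the complex (−0.30, SE 0.13, adjusted p = 0.27), and the coronin Coro7 (0.22, SE 0.14, adjusted p = 0.46). Gmfg was at 42.7 ± 7.01 CPM (SD, n = 3) in WT and 61.3 ± 12.1 CPM (SD, n = 4) in cKO, and Pick1 at 19.4 ± 0.95 and 15.7 ± 1.53 CPM. For Pick1 all cKO libraries lay below all WT libraries.

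The substrates of the complex, the cytoplasmic actins, did not pass the main edgeR test either, and both passed with DESeq2 (3.53% of all genes called higher). Both also passed in other fits, among them those with the offsets for GC content and length (4.34%) and with the Xist covariate (6.21%). Actg1 was at 182, 199.6 and 184 CPM in WT and at 223, 319, 309 and 363.5 CPM in cKO replicates 1 to 4 (edgeR log2 fold change 0.69, SE 0.15, adjusted p = 0.084), with the groups apart. Actb was at 4010 ± 148 CPM (SD, n = 3) in WT and 5548 ± 869 CPM (SD, n = 4) in cKO (edgeR log2 fold change 0.47, SE 0.14, adjusted p = 0.14), with the groups apart as well. Actin-related proteins that belong to other complexes, such as dynactin and chromatin remodellers, were a list of 8. Of the 7 tested, 0 passed the edgeR test, 1 had an unadjusted p under 0.05 (16.5% of all genes), 0 passed with DESeq2 or with voom without quality weights, and their median log2 fold change was 0.02. The smallest p was that of Actr5, a subunit of the INO80 chromatin remodeller, at 31.7 ± 2.28 CPM (SD, n = 3) in WT and 24.0 ± 2.69 CPM (SD, n = 4) in cKO (edgeR log2 fold change −0.40, SE 0.13, adjusted p = 0.16). Actr5 was called lower with quality weights (3.27% of all genes called lower) and with the replicate block (0.959%).

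Outside the complex, the genes whose profile over the 7 libraries lay closest to the mean profile of the subunits were Rexo2, Hypk, Psma4, Desi1 and BC005624, among 8567 genes whose mean log2 CPM was 3 or more. Their root-mean-square difference from that profile was 0.031 to 0.040 on the log2 scale. The subunits themselves differed from it by 0.084 (Arpc1a) to 0.20 (Actr2 and Arpc5l). The 5 genes were picked for being closest and the subunits were not, so no conclusion is drawn from the gap between these ranges. Psma4 encodes a proteasome subunit and Rexo2 an oligoribonuclease. Of the 5 genes 0 passed the edgeR test, with log2 fold changes from 0.35 to 0.41 and adjusted p from 0.13 to 0.15.

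Other leukocytes also express the complex, Arpc1b among its genes, so their markers are given beside the subunits. Markers of monocytes and neutrophils (7 of 8 in the table) summed to 8.37 to 10.4 CPM in cKO and 5.85 to 11.1 CPM in WT, 4 of them were under 1 CPM in every library, and Retnlg was at 0. The 6 lymphocyte markers summed to at most 0.195 CPM. The 7 markers of border-associated macrophages summed to 66.3 to 131 CPM in cKO and 72.2 to 110.0 CPM in WT. The ranges of the groups overlapped for each of these lists. Markers of astrocytes summed to 86.8 to 139.8 CPM in cKO and 132 to 138 CPM in WT, with 3 of the 4 cKO libraries below every WT library, and those of the oligodendrocyte lineage to 93.8 to 145 and 109 to 120.0 CPM. Markers of endothelial and mural cells summed to 58.8 to 79.0 CPM in cKO and 73.4 to 82.2 CPM in WT, again with 3 of the 4 cKO libraries below every WT library, and Cldn5 and Rgs5 were at 0. Markers of neurons summed to at most 3.49 CPM. The part of other cells in the subunit levels was not tested.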

How the data were processed

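RNA from sorted cortical microglia of 4 cKO and 3 WT mice was measured. The authors deposited whole-number counts per gene symbol, not normalized; the submitters' processing notes name DRAGEN and the GRCm39 build, and nothing used here gives the annotation, the counting rule or the strand setting. Total counts of 27016173 to 35707304 per library set the counting precision. In R 4.3.3, genes were filtered with filterByExpr of edgeR 4.0.16 (least count 10, least total 15), scaled by TMM and tested for cKO against WT with glmQLFit (robust) and glmQLFTest, without covariates. The standard error is the fold change divided by the square root of F. log2 CPM used a prior count of 2. The procedure was tested on simulated data. Alternatives were RLE and upper-quartile factors, DESeq2 1.42.0, limma 3.58.1 (voom, with and without quality weights), no robust option, other filters, leaving out each library, a block for the replicate number or for the run of mouse numbers, Xist (log2 CPM) as a covariate, and offsets for GC content and length (loess, span 0.3; values for 99.3% of genes); the offsets combined with Xist were chosen after seeing the data.

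Members, lists and tests were chosen with earlier results of these data known. All 10 members are named; of each list, genes past the threshold or else the 3 with the smallest p (both actins); and the 5 genes closest in profile. All listed regulators, actins and other actin-related proteins were found, 5 activators and 1 inhibitor of them by a synonym. Lengths and overlaps come from GENCODE M21 (GRCm38) by symbol. Counting rules can shift reads between a gene and near-identical copies: 6 members have 1 to 3 pseudogene transcripts of at least 90% identity over 200 bases or more, none of which is in the table under that name.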

Additional observations from a re-analysis of the deposited data

How the results depend on the processing

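The 9 tested subunit genes kept a log2 fold change above 0 under every alternative run, except Arpc5l. It was −0.02 under quality weights, −0.02 under the offsets (for GC content and length) joined to the replicate block, and from −0.03 to 0.13 when 1 library was left out, negative only when that was WT replicate 1. The number past the threshold, 2 in the main fit (0.359% of all genes, 43 genes), was 1 with upper-quartile scaling (0.392%), 5 with DESeq2 (5.08%, 538 genes), 6 with quality weights (7.54%, 904 genes), 5 with Xist as a covariate (8.81%, 1056 genes), 5 with the offsets (5.37%, 644 genes) and 6 with the offsets plus Xist, a fit chosen after seeing the data (11.6%, 1388 genes). It was 3 without a filter (0.543%, 89 genes) and 3 with the mouse-number block (1.42%, 170 genes). Leaving out 1 library gave 0 to 4 subunit genes and 4 to 142 genes in all. The subunit count was 4 when cKO replicate 1 was omitted, 1 for cKO replicate 4 and 0 for each other library, in fits with fewer samples.

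Same-numbered replicates are not paired by the labels, and their deviations correlated at 0.39, 0.07 and −0.17. With the replicate block, in which cKO replicate 4 has no partner and carries no weight, 4 subunit genes (Actr3, Arpc1b, Arpc2 and Arpc5) and 288 genes in all (2.40%) passed, and 5 and 686 (5.72%) when the offsets were added. Of the calls, 88.4% were higher in cKO in the main fit, 78.7% with upper-quartile scaling, 69.5% with DESeq2, 56.6% with quality weights, 70.5% with the Xist covariate and 60.1% with the block. Regulator genes (activators and inhibitors) past the threshold were 0 in the main fit, beside 0.359% of all genes. The number was 3 with DESeq2 (5.08% of all genes), 1 with voom (0.392%) and 7 with quality weights (7.54%). It was 1 without a filter (0.543%), 2 with the replicate block (2.40%) and 1 with the mouse-number block (1.42%). Given Xist as a covariate it was 6 (8.81%), and with the offsets 7 (5.37%). Offsets and block gave 6 (5.72%), and offsets and Xist gave 10 (11.6%). Without 1 library it was 0 to 1, beside 4 to 142 genes in all. The paralog ratio differences kept their sign: 0.23 to 0.28 for Arpc1b to Arpc1a and −0.54 to −0.38 for Arpc5l to Arpc5 without 1 library, where the test can no longer reach the threshold. The causes were not tested. Counts of 4 to 10 limit what can be said of Actr3b.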
